A study of Mus musculus with 3 samples.

Results

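Corneal epithelial keratins and crystallin enzymes were followed as 8 genes of 30406 whose Ensembl identifiers were listed for every library. The genes were chosen by symbol. They comprised the keratins Krt12, Krt5, Krt14 and Krt15, the enzymes Aldh3a1, Aldh1a1 and Tkt, and the secreted protein Slurp1. RNA was counted per barcode with a 3′ kit after nuclei had been isolated from snap-frozen whole mouse corneas. The library called WT came from wild-type, untreated mice, the library called KO from untreated Aire knockout mice, and the library called KO_PBS from Aire knockout mice given phosphate-buffered saline (PBS) for 14 days. Per the labels, all mice were 7 weeks old and 5 mice were pooled in each library. The series text gives 6 weeks and treatment day 7, and the lacripep arm it names was not analysed here. The Aire allele and the mouse strain are not given in the sources used here.

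Aire lets the thymus display tissue antigens, and its loss leads to autoimmune disease of the ocular surface and lacrimal gland. A UMI (unique molecular identifier) counts 1 captured RNA molecule, and Aire itself had 15 UMIs in WT, 27 in KO and 68 in the KO_PBS library. A 3′ count can lie outside a deleted part, so these values do not check the labels, and WT, KO and KO_PBS name the libraries as labelled. No group had a replicate, since each was a single library, and no test between groups was made. Intervals are exact 95% Poisson or binomial ones and cover counting error only.

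Keratins form the filaments of epithelial cells as pairs of a type I and a type II chain. Krt12 is the type I keratin of the differentiated corneal epithelium, and mutations in its human counterpart cause a corneal dystrophy. Krt5 is the type II keratin of basal epithelial cells, Krt14 is its type I partner in stratified epithelia, and Krt15 is a type I keratin of basal cells that is used as a marker of the limbus, where corneal stem cells reside. Corneal crystallins are metabolic enzymes that accumulate to very high levels in the epithelium. Aldh3a1, an aldehyde dehydrogenase, and Tkt, the transketolase of the pentose phosphate pathway, are the main ones in mice. Aldh1a1 is a retinal-oxidising aldehyde dehydrogenase, and Slurp1 is a secreted protein of the Ly6/uPAR family abundant on the ocular surface.

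The promoters of the pair of members with the most UMIs among the keratins are shown because the levels of Krt12 and Krt5 carry the main comparison. Each stretch holds the 150 bases before the RefSeq start site on the gene's own strand (GRCm38.p6), 5′ to 3′. Capitals mark a TATA box (TATAAA) or a CACCC box (CCCACCC, which reads GGGTGGG on this strand). The Krt12 stretch lies at chr11:99422260-99422409 and the Krt5 stretch at chr15:101712906-101713055, both on the minus strand.

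Krt12: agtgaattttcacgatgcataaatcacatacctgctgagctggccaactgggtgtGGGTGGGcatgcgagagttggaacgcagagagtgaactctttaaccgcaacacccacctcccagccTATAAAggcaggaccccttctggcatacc

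Krt5: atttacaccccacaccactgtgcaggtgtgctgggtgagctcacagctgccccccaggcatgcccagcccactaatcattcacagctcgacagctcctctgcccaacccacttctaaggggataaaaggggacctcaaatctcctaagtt

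In the Krt12 stretch, the TATA box began 29 bases before the start and the CACCC box 95 bases before it. Neither motif, nor the AP-1 site TGANTCA, was found on either strand of the Krt5 stretch. Only these exact letters were counted, and the Krt5 stretch holds GATAAA near its end, which differs from TATAAA in its first letter. Of 32851 RefSeq promoter stretches of 150 bases, 7.57% held TATAAA, 11.1% held CCCACCC and 4.24% held TGANTCA. A match describes the letters only.

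The keratins and the other members differed across the libraries. Levels are given as CPM, UMIs scaled to a library total of 1000000. The 4 keratins together had 37705 CPM in WT, 22895 in KO and 9553 in KO_PBS. Together, the other 4 members had 16163 in WT, 13563 in KO and 14640 in KO_PBS. Summed keratin RNA was thus lower in both knockout libraries, while the sum of the other members stayed within a narrower range.

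Krt12 (ENSMUSG00000020912; chr11:99415666-99422259, GENCODE M21 on GRCm38) had 26121 CPM in WT, 13793 in KO and 6205 in KO_PBS. Behind these levels stood 6684951, 4846064 and 1103333 UMIs. WT was 1.89-fold above KO, a log2 ratio of KO to WT of -0.92. The log2 ratio of KO_PBS to KO was -1.15 and that of KO_PBS to WT was -2.07. The intervals (26101 to 26141 in WT, 13781 to 13806 in KO and 6193 to 6216 in KO_PBS) did not overlap, so counting error was small beside these differences, while the spread between mice is unknown. In whole-cornea libraries, fewer cells of a type and less RNA per cell cannot be told apart.

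Krt5 (ENSMUSG00000061527; chr15:101707070-101712898) had 8829 CPM in WT, 6456 in KO and 2164 in KO_PBS. Its level was highest in WT, as for Krt12, and the larger step lay between KO and KO_PBS. The log2 ratio was -0.45 for KO against WT, -1.58 for KO_PBS against KO and -2.03 for KO_PBS against WT. Of the 50-base stretches of Krt5 transcripts, 8.52% also occur in other genes, 6.98% in Krt6a, another type II keratin. Krt6a itself had 1447 CPM in WT, 1710.0 in KO and 1177 in KO_PBS, and reads in those stretches could be split.

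Krt14 (ENSMUSG00000045545; chr11:100203162-100207548) had 609 CPM in WT, 1854 in KO and 721 in KO_PBS. It was the only keratin member with its highest level in KO, 3.04-fold above WT. The log2 ratio of KO_PBS to KO was -1.36. The log2 ratio of KO_PBS to WT was 0.24, and it was -1.03 when ratios were centred on the median gene. For genes with at least 500 CPM in KO_PBS or WT the median was -0.34, so this turn depends on the genes chosen for centring. Of the 50-base stretches of Krt14 transcripts, 13.9% also occur in other genes, 11.0% in Krt16, a keratin of wounded and hyperproliferative epithelia. Krt16 itself had 29.7 CPM in WT, 704 in KO and 110.5 in KO_PBS, and reads in the shared stretches could be split between both genes.

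Krt15 (ENSMUSG00000054146; chr11:100131758-100135928) had 2146 CPM in WT, 792 in KO and 464 in KO_PBS. WT was 2.71-fold above KO, so Krt15 and Krt14 lay on opposite sides of WT in that library. The log2 ratio was -0.77 for KO_PBS against KO and -2.21 for KO_PBS against WT. The 8 limbal and conjunctival markers had a summed level of 4160 CPM in the WT library, against 1550 in KO and 3200 in KO_PBS. Psca alone gave 733 CPM of the KO sum and 2070 of the KO_PBS sum. Its log2 ratio of KO_PBS to WT was -0.51, so it was higher still in WT and weighed on that sum too. By at least 2-fold, 4 of them were lower and 0 higher in KO against WT, where 8.63% of all genes were lower and 20.6% higher. Of the same 8, 4 were higher and 0 lower in KO_PBS against KO, where 39.9% of all genes were higher and 4.7% lower. The 10 basal epithelial markers summed to 1137, 1863 and 994, with 5 higher and 0 lower in KO against WT and 1 higher and 4 lower in KO_PBS against KO. No marker of either list was at 0, and their part in the levels of Krt14 and Krt15 was not tested.

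Aldh3a1 (ENSMUSG00000019102; chr11:61207537-61218421) had 5762 CPM in WT, 7158 in KO and 7739 in KO_PBS. This order of the libraries was the reverse of that for Krt12, Krt5 and Krt15. The log2 ratio was 0.31 for KO against WT and 0.11 for KO_PBS against KO. Centred on the median gene, these ratios were 0.07 and -0.52, and that of KO_PBS to WT turned from 0.43 to -0.84. The median was -0.34 for genes with at least 500 CPM in KO_PBS or WT, so this turn depends on the genes chosen for centring.

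Tkt (ENSMUSG00000021957; chr14:30548359-30574720) had 6550.3 CPM in WT, 4186 in KO and 4242 in KO_PBS. Slurp1 (ENSMUSG00000022596; chr15:74724318-74728034) had 3810.0 in WT, 2165 in KO and 2578 in KO_PBS. For both genes WT stood above the knockout libraries. The log2 ratio of KO_PBS to KO was 0.019 for Tkt and 0.25 for Slurp1, and centred on the median gene these turned to -0.61 and -0.38. For genes with at least 500 CPM in KO_PBS or KO the median was -0.046, so these turns depend on that choice too. Aldh1a1 (ENSMUSG00000053279; chr19:20492715-20643465) had 40.9 CPM in WT, 53.4 in KO and 80.3 in KO_PBS. It was highest in KO_PBS, although its centred log2 ratios there were -0.042 against KO and -0.30 against WT. Of the 50-base stretches of Aldh1a1 transcripts, 3.06% also occur in Aldh1a7, which had at most 3.11 CPM.

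**Figure D1:**
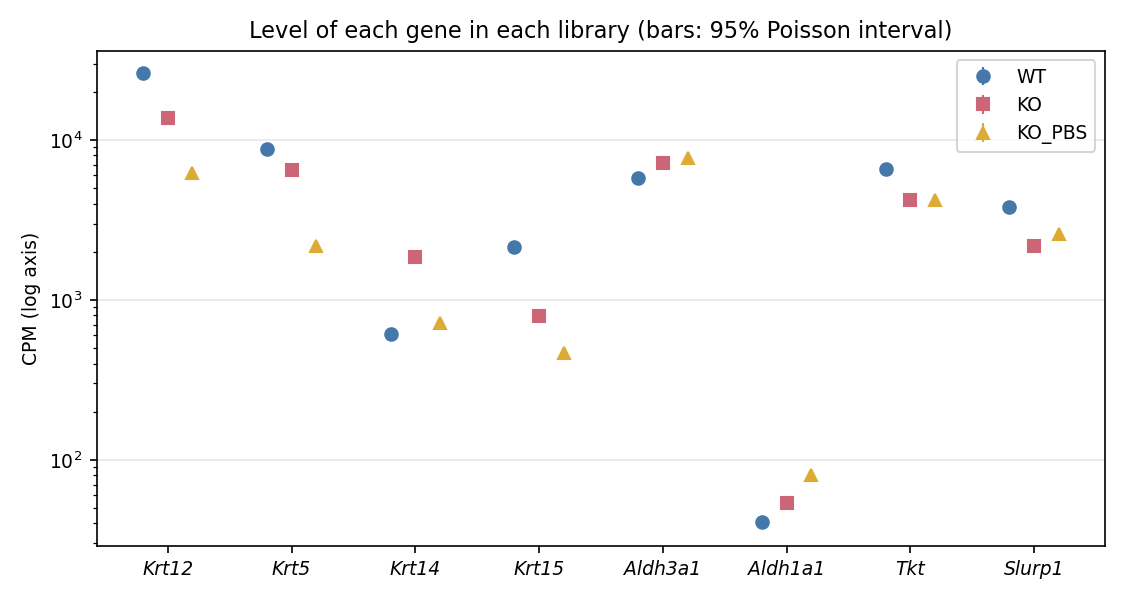
Level of each of the 8 genes in CPM (log axis) in WT (circles), KO (squares) and KO_PBS (triangles), 1 library each, with 95% Poisson bars that are mostly smaller than the points. Krt12 steps down from 26121 to 13793 to 6205, Krt14 peaks in KO at 1854, and Aldh3a1 steps up from 5762 to 7739.

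The order of the genes was compared per length, as CPM per kilobase of exon, although 3′ counts do not grow with length as those of whole transcripts do. In WT, Krt12 led with 14104 per kilobase, ahead of Krt5 with 4019 and Aldh3a1 with 2967. In KO, Aldh3a1 with 3686 stood above Krt5 with 2938, and Krt14 moved up from the seventh place to the fourth with 1054. By CPM without length, Krt14 with 1854 stayed below Tkt with 4186 and Slurp1 with 2165 in KO, so that rise depends on the length scaling. In KO_PBS, Aldh3a1 led with 3985 and Krt12 followed with 3350. Aldh1a1 was last in every library, with 8.29, 10.8 and 16.3. No neighbouring genes in these orders had overlapping counting intervals.

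Differences were read against all genes, which were not centred on 0. A gene passed the rule of size with a minimum of 50 UMIs in the pair of libraries, a difference of 2-fold or more, and Poisson intervals that did not overlap. In KO against WT, 1 of 8 members was higher (Krt14) and 1 was lower (Krt15), where 20.6% of 20252 genes were higher and 8.63% were lower. In KO_PBS against KO, 3 members were lower (Krt12, Krt5 and Krt14) and 0 higher, where 4.7% of 22416 genes were lower and 39.9% higher. In KO_PBS against WT, 3 members were lower (Krt12, Krt5 and Krt15) and 0 higher, where 4.06% of 22138 genes were lower and 57% higher. At a fold of 1.5, KO against WT had 1 member higher and 4 lower (34.6% and 15.8% of all genes), KO_PBS against KO had 1 and 4 (50.9% and 8.59%), and KO_PBS against WT had 1 and 4 (68.6% and 7.53%). The comparisons share libraries and are not independent.

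The median gene had a log2 ratio of 0.24 in KO against WT, 0.63 in KO_PBS against KO and 1.27 in KO_PBS against WT. Relative to it, Krt12 stood at -1.17, -1.78 and -3.34. With every ratio centred in this way, 1 member was higher and 3 were lower in KO against WT (14.8% and 12.9% of all genes). In KO_PBS against KO, 0 were higher and 4 lower (29.9% and 12.9%), and in KO_PBS against WT, 0 were higher and 6 lower (29.6% and 23.1%). For genes with at least 500 CPM in either library of a pair, the median log2 ratios were -0.30, -0.046 and -0.34. The centred values of Krt12 and the centred counts of members thus depend on the genes chosen for centring. The members' own medians were -0.55, -0.38 and -0.60. For the 4 keratins alone they were -0.69, -1.26 and -2.05, and for the other 4 members -0.17, 0.18 and -0.07.

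**Figure D2:**
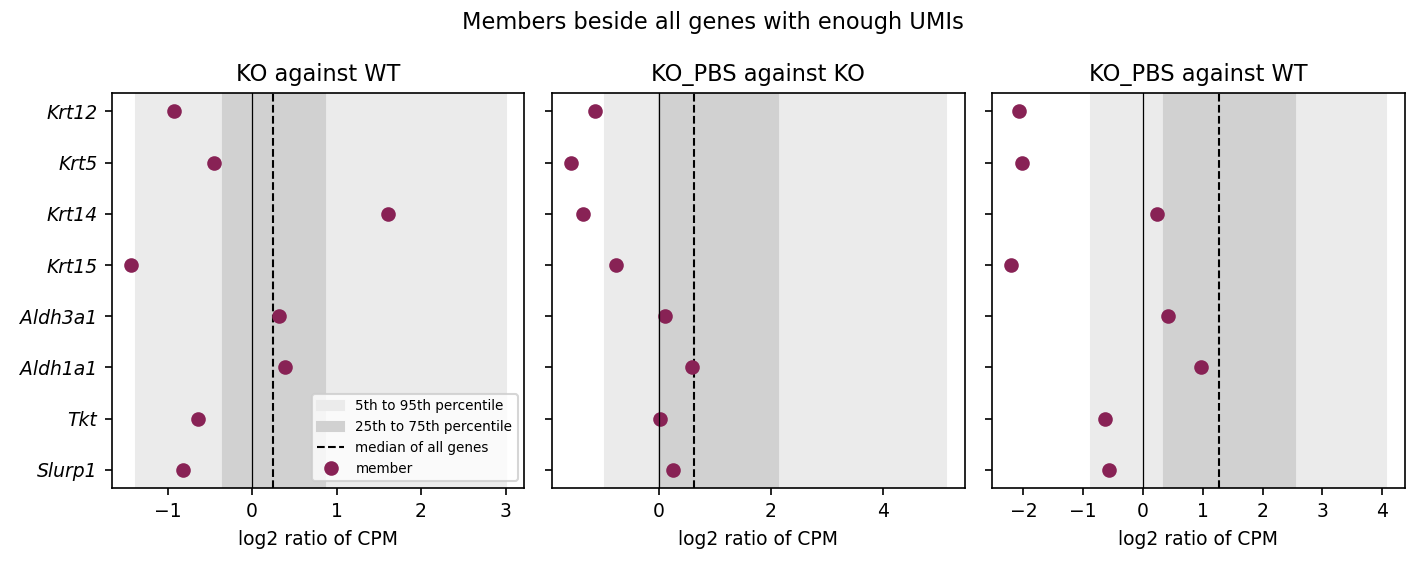
Log2 ratio of CPM of each member (points) in 3 comparisons, beside the median (dashed) and the 25th to 75th and 5th to 95th percentiles (bands) of all genes with enough UMIs. In KO_PBS against WT, Krt12, Krt5 and Krt15 lie at -2.07, -2.03 and -2.21, left of the bands, and Aldh1a1 lies at 0.97, within them.

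Krt12 was set against the basal keratins within each library, which does not depend on the total. The ratio of Krt12 UMIs to Krt5 plus Krt14 UMIs was 2.77 in WT, 1.66 in KO and 2.15 in KO_PBS. Krt12 thus made up 73.5% of the UMIs of these 3 keratins in WT, 62.4% in KO and 68.3% in KO_PBS. These are ratios of counts, not of molecules per cell. The log2 difference was -0.74 for KO against WT, 0.37 for KO_PBS against KO and -0.36 for KO_PBS against WT.

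Each basal keratin gave its own picture. Krt12 to Krt5 was 2.96 in WT, 2.14 in KO and 2.87 in KO_PBS. By this ratio KO_PBS was close to WT. Krt12 to Krt14 was 42.9 in WT, 7.44 in KO and 8.61 in KO_PBS. By this one both knockout libraries lay far below WT. With Krt15, the sign of all 3 differences turned: Krt12 to Krt15 was 12.2 in WT, 17.4 in KO and 13.4 in KO_PBS.

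Proportions also differed between the basal keratins. Krt14 to Krt5 was 0.069 in WT, 0.287 in KO and 0.333 in KO_PBS. This partner pair differed by a log2 of 2.06 between KO and WT, and the difference was still present in KO_PBS although the Krt14 level was close to that of WT. Krt15 to Krt14 was 3.52 in WT, 0.427 in KO and 0.645 in KO_PBS. Krt15 thus gave more UMIs than Krt14 in WT and fewer in both knockout libraries.

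Against Aldh3a1, Krt12 stepped down in both knockout libraries, with ratios of 4.53 in WT, 1.93 in KO and 0.802 in KO_PBS. Tkt to Aldh3a1 was 1.14 in WT, 0.585 in KO and 0.548 in KO_PBS. These crystallin enzymes thus did not keep their proportion. Slurp1 to Tkt varied least of these, at 0.582, 0.517 and 0.608.

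**Figure D3:**
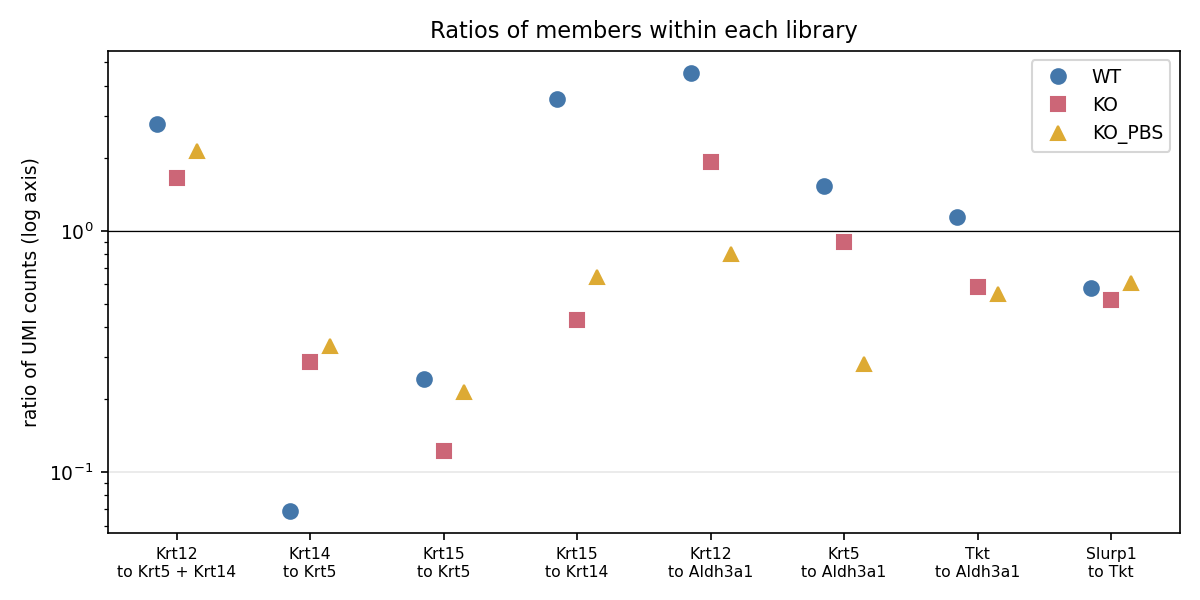
Ratio of UMI counts of a pair or set of members within each library (log axis; the line marks 1) for WT (circles), KO (squares) and KO_PBS (triangles). Krt14 to Krt5 lies at 0.069 in WT against 0.287 and 0.333, and Krt12 to Aldh3a1 goes from 4.53 to 1.93 to 0.802.

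The libraries differed in much else. They held 96587, 107031 and 114357 barcodes and 256852883, 352627863 and 178988562 UMIs in WT, KO and KO_PBS, with median UMIs per barcode of 2253, 2970 and 1422. Pairs of libraries shared 2833 to 3379 barcode sequences. Markers are called higher or lower here by the 2-fold rule of size. Over all genes, 20.6% were higher and 8.63% lower in KO against WT. The shares were 39.9% and 4.7% in KO_PBS against KO, and 57% and 4.06% in KO_PBS against WT. The 10 lens markers summed to 817 CPM in WT, 293 in KO and 9168 in KO_PBS, and all 10 were higher in KO_PBS than in either other library. All 7 melanocyte markers (summed 496, 172 and 4238) and all 8 photoreceptor markers (124, 45.1 and 1911) were also higher in KO_PBS than in either other library. The 8 plasma and B cell markers summed to 126, 13903 and 1161, and 7 of them were higher in KO than in WT. The 10 keratocyte markers summed to 1669, 4039 and 6440.4 CPM, with 8 higher and 1 lower in KO against WT and 2 higher and 5 lower in KO_PBS against KO, where Ptgds alone gave 4145 CPM of the KO_PBS sum. The 9 macrophage markers summed to 99.9, 1349 and 1331, and all 9 were higher in KO than in WT. Ribosomal protein genes held 17.9%, 13.7% and 11.2% of the UMIs. None of these markers was at 0 in any library. Their part in the members' levels was not tested.

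Krt12 RNA was spread over nearly all barcodes. After each barcode with at least 1000 UMIs was thinned to 1000, Krt12 had a UMI in 100% of the 96322 WT barcodes, in 99.998% of the 106805 KO barcodes and in 99.6% of the 97497 KO_PBS barcodes. Shallower barcodes, 265, 226 and 16860 in that order, were left out. The thinned median was 25, 13 and 6 UMIs of Krt12. In barcodes rich in the markers of keratocytes, the stromal cells of the cornea, which should lack Krt12, the share was also 100% in all 3 libraries. These held 1580, 1494 and 65 barcodes, with median UMIs of 3081, 3477 and 3159 against 2253, 2970 and 1422 overall. In the same keratocyte-rich barcodes, Krt5 had a UMI in 99.9%, 99.7% and 76.9%, and Aldh3a1 in 99.3%, 99.7% and 93.8%. Tkt had one in 99.7%, 98.1% and 89.2%, and Slurp1 in 95.4%, 85.2% and 70.8%. Shares of barcodes with a UMI of Krt12 or of these members were therefore read as background and not as expression.

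Members with fewer UMIs were found in fewer barcodes. Aldh1a1 had a UMI in 4.00%, 5.02% and 7.49% of thinned barcodes in WT, KO and KO_PBS (9.91%, 15.5% and 11.3% unthinned), and in 5.19%, 6.09% and 4.62% of the keratocyte-rich ones. Krt14 had a UMI in 43.5% of thinned WT barcodes and in 41.7% of the keratocyte-rich ones (71.7% unthinned). In KO the shares were 80.8% and 77.4% (97.9% unthinned), and in KO_PBS 51.3% and 38.5% (64.6% unthinned). Krt15 had a UMI in 80.7%, 49.9% and 35.8% of thinned barcodes, and in 78.4%, 47.1% and 24.6% of the keratocyte-rich ones; unthinned shares over all barcodes were 95.7%, 83.2% and 47.6%. For Krt15 the order of the libraries was the same in both kinds of barcode. For Krt14 KO was highest in both, while KO_PBS lay above WT over thinned barcodes, and below it both over unthinned barcodes and in the 65 keratocyte-rich ones. As the shares of Krt14 and Krt15 in keratocyte-rich barcodes of WT and KO were close to those over all thinned barcodes, they too were read as background.

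A count that is spread evenly has a variance equal to its mean. Over thinned barcodes the variance over the mean of Krt15 was 2.22 in WT, 1.48 in KO and 1.22 in KO_PBS, and for Krt12 it was 1.52, 1.37 and 1.25. The lowest values were those of Aldh1a1, at 1.02, 1.01 and 1.02. For a like unevenness between barcodes this measure grows with the mean. The mean thinned UMIs were 2.09, 0.784 and 0.463 for Krt15, 25.8, 13.8 and 6.32 for Krt12, and 0.041, 0.052 and 0.079 for Aldh1a1. Its order over genes or libraries is therefore not an order of unevenness. Correlations between pairs of members over barcodes were weak and are no finding. Over the 28 pairs they ran from -0.15 to 0.12 in WT, from -0.035 to 0.15 in KO and from -0.012 to 0.13 in KO_PBS.

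Barcodes rich in the markers of a class showed where members stood above the library. A barcode was rich when its UMIs of the class's markers exceeded those expected from its total with a Poisson upper tail under 1e-06 and at least 3 markers were detected. No member is in a marker list. This is a range and not a type: in WT, 287 barcodes had a tail between 1e-07 and 1e-06 for limbal and conjunctival markers, just inside the limit, and 416 had one between 1e-06 and 1e-05, just outside. For superficial markers in KO these numbers were 31 and 53, for basal markers in KO_PBS 71 and 99, and for corneal endothelium markers in KO_PBS 117 and 210. WT had 6 barcodes rich in basal epithelial markers and KO had 5, too few to describe.

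Krt15 stood above the library in barcodes rich in limbal and conjunctival markers. The fold over the library was 1.75 in 1569 WT barcodes, 3.08 in 428 KO barcodes and 5.03 in 206 KO_PBS barcodes. In CPM, these barcodes held 3761 of Krt15 in WT, 2437 in KO and 2334 in KO_PBS. Their levels were closer to each other than those of the whole libraries. The marker list includes Psca, which gave a large part of the list's summed level in KO and KO_PBS and was higher still in WT. Krt14 was near the library level in these barcodes, with folds of 0.92, 1.07 and 0.93. Under a stricter limit chosen after seeing the data (a tail under 1e-10), its folds were 0.89, 0.97 and 0.85. Keratocyte markers in these barcodes were at a median of 0.881, 2.79 and 3.61 per 1000 UMIs, below the medians of all barcodes of 1.22, 3.63 and 6.44. Superficial epithelial markers were above theirs, at 1.94, 1.86 and 3.60 against 1.04, 1.24 and 0.999.

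Krt14 stood 2.35-fold above the library in 126 KO barcodes rich in superficial epithelial markers, where Krt15 was at 0.88-fold and Krt12 at 1.20-fold. In 131 such KO_PBS barcodes the order was another one, with Krt14 at 0.51-fold, Krt15 at 2.80-fold and Krt12 at 1.44-fold. Those KO_PBS barcodes also held limbal and conjunctival markers at a median of 7.08 per 1000 UMIs, against 3.10 in all barcodes. The 10 superficial markers did not move as a set. By at least 2-fold, 2 were higher and 2 lower in KO against WT (20.6% and 8.63% of all genes). In KO_PBS against KO, 3 were higher and 3 lower (39.9% and 4.7%). Which markers made the barcodes of each library rich was not tested.

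In 213 KO_PBS barcodes rich in basal epithelial markers, Krt5 stood 1.84-fold, Krt12 1.65-fold and Krt14 1.5-fold above the library. Tkt stood 1.34-fold above it, while Slurp1 (0.65-fold) and Krt15 (0.63-fold) were below. Krt15 was therefore lower in the barcodes rich in basal markers and higher in those rich in limbal and conjunctival ones.

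Aldh1a1 stood high in other classes. In barcodes rich in the markers of the corneal endothelium, the cell layer on the inner face of the cornea, it stood 1.88-fold above the library in 411 WT barcodes, 1.33-fold in 123 KO barcodes and 2.79-fold in 652 KO_PBS barcodes. The KO value rests on 38 UMIs, and its interval in CPM (50.1 to 97.3) includes the library level of 53.4. In keratocyte-rich barcodes Aldh1a1 was at 1.42, 1.22 and 1.19-fold, the last from 22 UMIs. Under a stricter limit chosen after seeing the data (a tail under 1e-10), it was at 1.46, 1.37 and 0.94-fold there, and the corneal endothelium value in KO was 1.34. The corneal endothelium markers themselves summed to 946 CPM in WT, 1208 in KO and 2398 in KO_PBS, and 7 of the 10 were higher in KO_PBS than in KO by at least 2-fold, where 39.9% of all genes were. Their part in the Aldh1a1 levels was not tested. Krt12 stood at 0.73, 0.76 and 0.57-fold in the same barcodes.

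**Figure D4:**
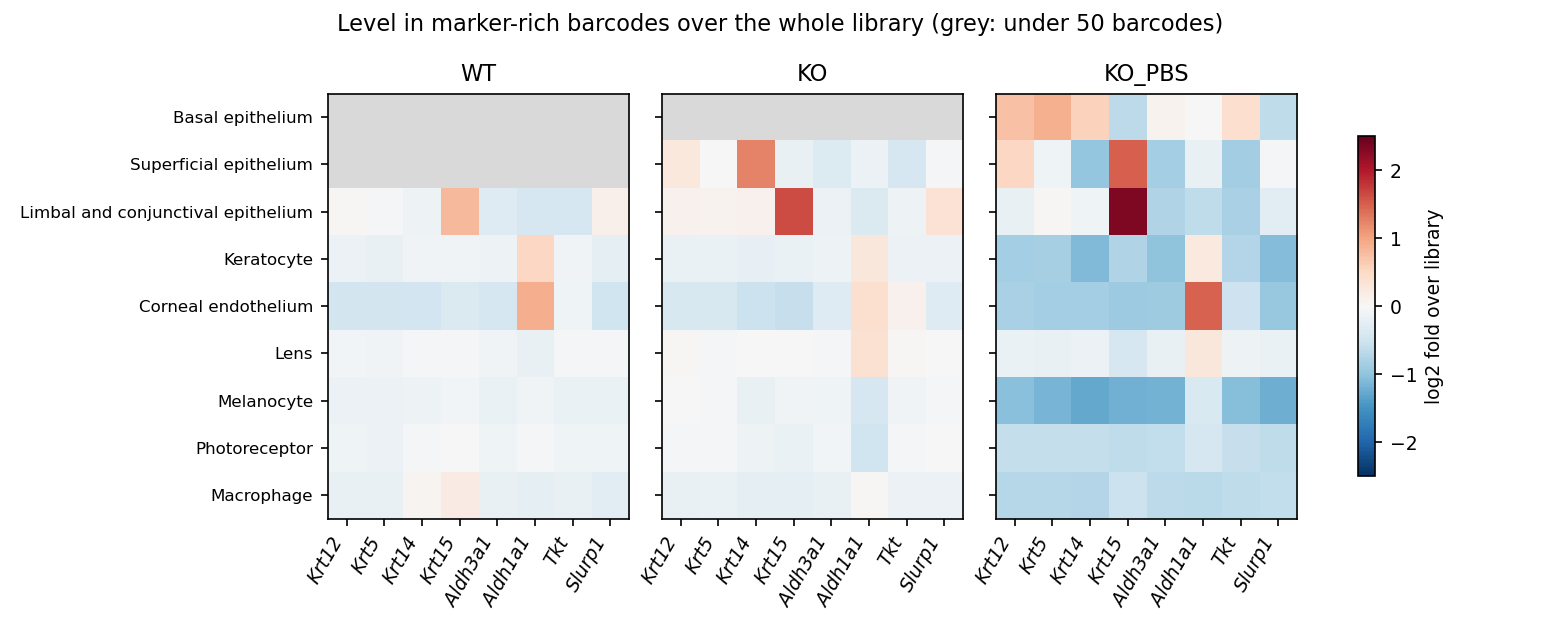
Log2 fold of each member over the whole library in barcodes rich in the markers of 9 classes, in 1 panel per library (red above, blue below, grey where a class had under 50 barcodes). Krt15 is raised in the limbal and conjunctival row (1.75, 3.08 and 5.03-fold) and Aldh1a1 in the corneal endothelium row. In KO_PBS, the rows other than the basal, superficial, and limbal and conjunctival ones are mostly below the library.

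Classes other than the basal, superficial, and limbal and conjunctival ones were taken where they held 50 or more barcodes. They included keratocytes, corneal endothelium and, in WT and KO_PBS, retinal pigment epithelium. In them Krt12, Krt5 and Krt14 stayed near the proportions of their library. Krt12 to Krt5 plus Krt14 was between 2.72 and 2.84 over 8 such classes in WT (2.77 in the library). It was between 1.65 and 1.73 over 8 in KO (1.66) and between 2.09 and 2.39 over 9 in KO_PBS (2.15). Krt14 to Krt5 was between 0.0685 and 0.0821 in WT (0.069 in the library). It was between 0.255 and 0.288 in KO (0.287) and between 0.279 and 0.356 in KO_PBS (0.333). The level of Krt12 in these classes was 0.73 to 0.97-fold of the library in WT, 0.76 to 1.02-fold in KO and 0.49 to 1.00-fold in KO_PBS.

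The members' levels in KO_PBS also depended on the depth of the barcode. Aldh3a1 had 9317 CPM in the 25% of barcodes with the fewest UMIs and 6530.4 in the 25% with the most. Slurp1 went from 3228 to 2096 and Krt12 from 6759 to 5731, while Aldh1a1 went the other way, from 74.5 to 86.0. Among the 25% of barcodes with the most UMIs, the log2 ratio of KO_PBS to KO was -0.11 for Aldh3a1, -0.17 for Tkt and -0.05 for Slurp1, each the reverse in sign of its value over all barcodes.

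Barcodes in which a single member stood above its library were then described, a choice made after seeing the data. The same Poisson limit was applied to that member alone. The fold needed to pass it depends on the member's level in the library and on the depth of the barcode. Numbers of such barcodes are therefore not comparable between libraries or members. Krt15 had the most such barcodes in WT, 1665, which carried 12.7% of its UMIs. KO had 847 with 7.03% and KO_PBS had 238 with 5.79%. Their median UMIs were 3215, 3872 and 3049.5, above those of the libraries. In WT they were led by Krt4, Krt17, Krt19 and Krt8, and in KO by Krt4 and Krt19. Krt4, Krt19 and Krt8 are keratins of mucosal or simple epithelia. In KO_PBS they were led by Cyp2a5, Trpm6 and Has2.

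WT held 144 Krt14-rich barcodes, KO 630 and KO_PBS 61, and their leading genes differed by library. They were deeper than their libraries, with median UMIs of 5082, 5270.5 and 3167 against 2253, 2970 and 1422. In WT they were led by Wfdc18, Gpha2, Lgals7 and Krt17. Gpha2 is a marker of limbal stem cells and had 1302 CPM there against 188 in the library. In KO they were led by Sprr2d, S100a9, Dmkn, Sprr2f and Csta3. Sprr2 proteins belong to the cornified envelope and S100a9 to calprotectin, and S100a9 had 3111 CPM there against 429.5 in the library. In KO_PBS they were led by Krt17, Krt16 and Barx2.

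Krt15 stood 4.64-fold above the library in the WT Krt14-rich barcodes, with an interval of 4.55 to 4.73. In KO it stood 1.32-fold above the library (1.28 to 1.36), and in KO_PBS 5.59-fold (5.14 to 6.08). In the Krt15-rich barcodes, Krt14 stood at 2.02-fold in WT, 1.55-fold in KO and 1.57-fold in KO_PBS, so by fold KO_PBS was close to KO there. In CPM, Krt14 had 1233, 2864 and 1130 in them. The correlation of Krt14 with Krt15 over thinned barcodes was 0.088, 0.049 and 0.023 in WT, KO and KO_PBS, which is weak. In the Krt14-rich barcodes, Krt12 was at 0.58-fold in WT, 0.98-fold in KO and 0.76-fold in KO_PBS, and Krt5 at 1.00, 1.20 and 2.14-fold. These KO_PBS values rest on 61 barcodes. A barcode can hold more than 1 nucleus, and doublets were not removed.

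**Figure D5:**
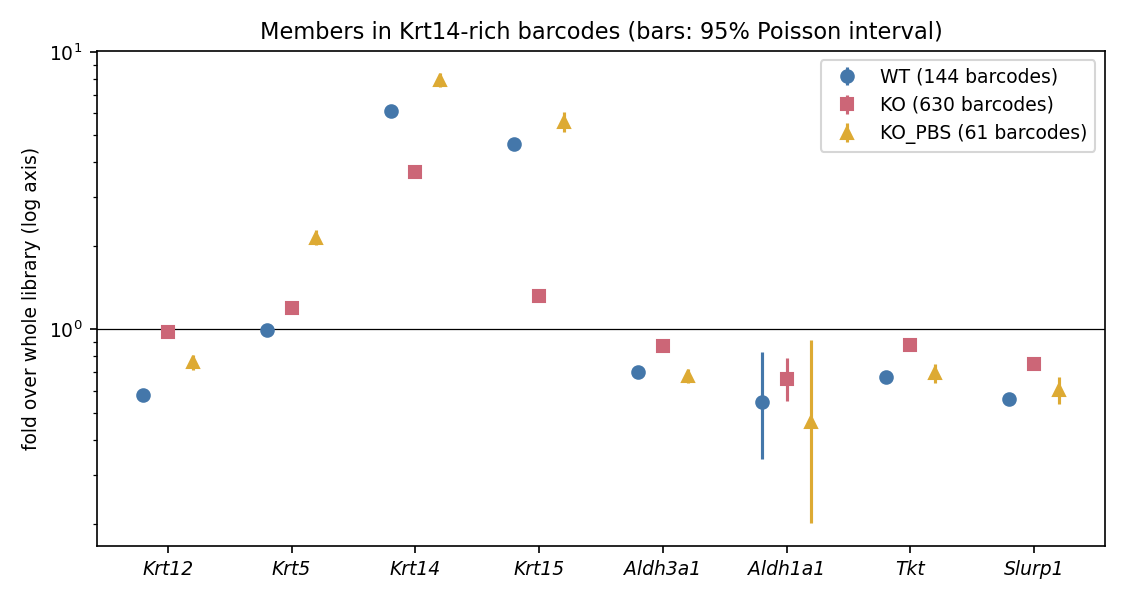
Fold of each member over its whole library (log axis) in barcodes rich in Krt14, in WT (144 barcodes), KO (630) and KO_PBS (61), with 95% Poisson bars; the Krt14 points follow from the choice of barcodes. Krt15 lies at 4.64 in WT and 5.59 in KO_PBS, and at 1.32 in KO. In CPM, Krt15 had 9950 in the WT barcodes, 2597 in those of KO_PBS and 1043 in those of KO.

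Krt12-rich barcodes numbered 568, 515 and 252, with median UMIs of 4780.5, 4775 and 3205.5. In WT they were led by Ly6g6c, Spink5 and Hopx, and in KO by Asprv1, Il18 and Ly6g6c. Slurp1 stood 1.36-fold above the library in them in WT, 1.92-fold in KO and 1.09-fold in KO_PBS. In KO_PBS the leading gene was A830036E02Rik, which lies antisense to Krt12 and overlaps its exons. The overlap is 1625 bases summed over pairs of annotated exons, where a base can count more than once. A830036E02Rik had 158, 72.5 and 19.8 CPM in WT, KO and KO_PBS.

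Among 1980 genes with at least 50 CPM in every library, those nearest to Krt12 in the pair of log2 ratios (KO against WT, KO_PBS against KO) were Epcam, Aqp5, Rbp2, Gm10260 and Rps7. Aqp5, a water channel of the corneal epithelium, had 9303 CPM in WT, 4640.2 in KO and 1895 in KO_PBS. Epcam, an epithelial adhesion protein, had 232, 127 and 53.5. Rps7, a ribosomal protein gene, had 2466, 1508 and 749, so the pattern was not particular to epithelial genes. The ribosomal protein genes Rpl29, Rps13 and Rps15a were likewise among those nearest to Krt5. By correlation over thinned barcodes the nearest were Aqp5, Lypd2, Gsta4, S100a6 and Krt5, with mean r from 0.148 to 0.123, which is weak.

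Other genes of the same groups were counted by the same rule of size. Over all genes, 20.6% were higher and 8.63% lower in KO against WT, and 39.9% were higher and 4.7% lower in KO_PBS against KO. Counts near these shares are no result about a list. Of 16 other epithelial keratins, 15 had enough UMIs in KO against WT, where 2 were higher and 3 lower. Krt16 had 29.7 CPM in WT and 704 in KO, and Krt17, another keratin of activated epithelia, had 62.7 and 149.7. Krt78 went from 42.8 to 18.3. In KO_PBS against KO, 5 of 16 were higher, a smaller share than over all genes, and 1 was lower (Krt16, to 110.5). Krt18 and Krt8, the pair of simple epithelia, went from 16.8 to 100.2 and from 24.7 to 80.8.

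Of 28 other corneal epithelial genes, 3 were higher and 2 lower in KO against WT, and 4 were higher and 10 lower in KO_PBS against KO. Trp63, the regulator of basal epithelial cells, had 88.4 CPM in WT and 215 in KO. Cdh1, the epithelial cadherin, had 59.3 and 146. In KO_PBS against KO, the desmosome protein gene Dsp went from 1004 to 373.

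Of 16 aldehyde and retinoid enzymes, 2 were higher and 0 lower in KO against WT, and 4 were higher and 0 lower in KO_PBS against KO. Both shares of higher genes lay below those over all genes. Aldh1a3 went from 49.2 to 106 between WT and KO, and Aldh2 from 71.1 to 165 between KO and KO_PBS. Of 15 pentose phosphate and glycolytic enzymes, 3 were higher and 0 lower in each of these comparisons. Unlike Tkt, the glycolytic enzyme Pkm was higher in KO than in WT, at 475 against 172. Rpia, which feeds the pathway's sugar phosphates to transketolase, was at 29.3 against 13.3.

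Of 13 other members of the Ly6/uPAR family, the family of Slurp1, 12 had enough UMIs in KO against WT, where 5 were higher and 4 lower. Ly6a had 103 CPM in WT and 1057 in KO. In KO_PBS against KO, 4 of 13 were higher and 1 was lower, and Psca went from 733 to 2070.5. Psca was higher in WT than in KO_PBS, with a log2 ratio of KO_PBS to WT of -0.51. Of 16 antioxidant and detoxifying enzymes, 3 were higher and 0 lower in KO against WT, with Hmox1 at 14.5 against 2.37. In KO_PBS against KO, 3 were higher and 1 was lower, with Gpx3 going from 6.97 to 188. The median log2 ratios of these 6 lists lay between -0.30 and 0.61 in KO against WT, where the median gene was at 0.24, and between -0.79 and 0.60 in KO_PBS against KO, where it was at 0.63.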

How the data were processed

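UMI counts per gene and barcode in 3 single-nucleus libraries, 1 per group, were analysed as the authors deposited them: whole-number counts, not normalized. Cell Ranger 7.0.1 and the build mm10 are named in the submitters' processing notes. The annotation and barcode filter are not given in the sources used here. The WT and KO lists hold 32285 genes and the KO_PBS list 31053, so KO_PBS may have been counted on another annotation. The effect of this on its levels was not tested, and AY036118 held 3.59%, 1.94% and 0.051% of the UMIs in WT, KO and KO_PBS. The 30406 Ensembl IDs in every list held 99.6%, 99.6% and 99.3% of the UMIs and set the totals. All deposited barcodes were used and no doublet was removed. Levels are counts per 1000000 UMIs (CPM) with exact 95% Poisson intervals. Barcodes were thinned to 1000 UMIs with fixed seeds. The rule of size was tried on simulated counts, and the alternatives (centring, totals, barcode subsets, other basal keratins) were recomputed on the data. This was done in python 3.11.15 with numpy 2.4.6, scipy 1.17.1, pandas 2.3.3 and numba 0.67.0. Gene positions and exon lengths came from GENCODE M21. Promoters came from RefSeq, where 5 of the 8 members had an entry. Of each gene list, the 3 genes with the largest log2 ratio in a comparison and at least 5 CPM in the higher library could be named. Likeness to Krt12 named 5 genes per measure. The members and lists were chosen with earlier results of these data known.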

Additional observations from a re-analysis of the deposited data

How the results depend on the processing

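With 1 library per group, no replicate could be left out, and no paired analysis was possible because each group had a single sample. The log2 difference in the ratio of Krt12 to the basal keratins, for KO against WT, KO_PBS against KO and KO_PBS against WT in turn, was -0.47, 0.42 and -0.045 with Krt5 alone and -2.53, 0.21 and -2.32 with Krt14 alone. With Krt15 alone it changed sign in each comparison, to 0.52, -0.38 and 0.13, and with Krt5, Krt14 and Krt15 together it was -0.57, 0.29 and -0.28. It was -0.70, 0.27 and -0.43 in the 25% of barcodes with the fewest UMIs and -0.77, 0.43 and -0.34 in those with the most. Barcodes with at least 500 genes and at most 5% mitochondrial UMIs moved none of these beyond counting error. A fold of 1.5 in place of 2 gave 4 members lower in KO against WT, where 15.8% of all genes were lower. It gave 1 higher in each KO_PBS comparison, where 50.9% of all genes were higher against KO and 68.6% against WT. Centring on the median gene gave 3 lower in KO against WT (12.9% of all genes) and 6 lower in KO_PBS against WT (23.1%). Centring also changed the sign of 7 of the 24 ratios of members between libraries, and its effect depends on the genes chosen for centring. A total without immunoglobulin, haemoglobin, lens crystallin, mitochondrial and AY036118 UMIs changed 1 sign, that of Tkt in KO_PBS against KO. Dropping the UMI minimum changed no count of members. Under a stricter limit for a marker-rich barcode, a tail of 1e-10 added after seeing the data, Krt15 stood 1.80-fold above the library in WT and 4.74-fold in KO_PBS barcodes rich in limbal and conjunctival markers. In KO_PBS barcodes rich in corneal endothelium markers Aldh1a1 stood at 3.20-fold, and in KO barcodes rich in superficial markers Krt14 stood at 2.80-fold. In KO_PBS barcodes rich in basal markers Krt12 stood at 1.79-fold, Krt5 at 2.05-fold and Krt15 at 0.53-fold, and in those rich in superficial markers Krt15 stood at 3.38-fold. The direction of each was as before, and the cause of these shifts was not tested. Depth limits the classes with few barcodes.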
